A study of Saccharomyces cerevisiae with 6 samples.

Results

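The genes of trehalose metabolism in the budding yeast Saccharomyces cerevisiae were followed through an exposure to chloroacetaldehyde, a reactive chlorinated aldehyde. They were chosen by name: TPS1, TPS2, TPS3 and TSL1 for synthesis, and NTH1, NTH2 and ATH1 for breakdown. All 7 were found by gene symbol among the 5365 genes named on the array, each with 1 spot, and all 7 had a value on every hybridization, so none was lost to the requirement for complete values that left 3642 genes to test. Strain S288C was grown in rich glucose medium (YPD) at 25 °C to an optical density of 1, chloroacetaldehyde was added to 25 ppm, and cells were collected after 2 h. Their polyA RNA (Cy5) was compared on 2-colour arrays with RNA of cells at the same density before the addition (Cy3). The labels describe 3 hybridizations from independent biological samples, each scanned at 2 laser powers.

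Trehalose is a non-reducing disaccharide of glucose that yeast stores when growth slows and that protects proteins and membranes under heat, drying and other stresses. The synthase Tps1 joins UDP-glucose and glucose 6-phosphate to trehalose 6-phosphate, which the phosphatase Tps2 turns into trehalose, and Tps3 and Tsl1 are regulatory subunits of the same complex. The neutral trehalase Nth1, its close relative Nth2 and the acid trehalase Ath1 split trehalose back into glucose. In textbook accounts, many of these genes are induced together by the stress factors Msn2 and Msn4, which protein kinase A holds back while glucose is plentiful.

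Values are log2 ratios of exposed cells over cells before exposure, normalised by the authors within each scan and here averaged over the scans of a hybridization. The labels state neither the base of the logarithm nor the direction. They were taken as base 2, with the exposed RNA, listed as channel 1, as the likely numerator. If it runs the other way, every sign turns. The dye order was the same on every array, and the exposed cells had also grown 2 h longer, so dye, time of growth and exposure cannot be told apart. The earlier RNA served as the reference, so the spread of the control itself is not measured. Across the 3642 genes, log2 ratios of different hybridizations correlated at -0.0537 to 0.206, against 0.921 to 0.937 between the scans of a hybridization. The array limits the precision through its 3 hybridizations.

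None of the trehalose genes passed the test against a ratio of 1 (0 of 7 at an adjusted p under 0.05 by limma with Benjamini-Hochberg adjustment over all genes tested, where 0.0549% of genes passed). At an unadjusted p under 0.05 there was 1 of 7, TPS3, against 6.15% of all genes. The means of 6 genes lay below 0 and that of NTH2 lay above it. Over all 3642 genes tested, 2011 had a mean below 0. The median of the 7 means was -0.53, beside -0.04 over all genes tested. The genes shared the hybridization on which they were highest: each had its highest log2 ratio on hybridization 3. The lowest was hybridization 2 for TPS1, TPS2 and TSL1 and hybridization 1 for TPS3, NTH1, NTH2 and ATH1. Hybridization 3 was thus the highest for 7 of 7, against 35.3% of all genes tested. This count, also given for other lists below, was not planned and was chosen after seeing the data. NTH1 was the exception when the median of neighbouring spot numbers was subtracted, which left 6. No gene of the 7 was above 0 on every hybridization (11.5% of all genes), and TPS1, TPS3 and NTH1 were below 0 on every one (16.1% of all genes). TPS2, TSL1 and ATH1 were below 0 on hybridizations 1 and 2 and above it on hybridization 3, a pattern found in 15.7% of all genes.

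**Figure D1:**
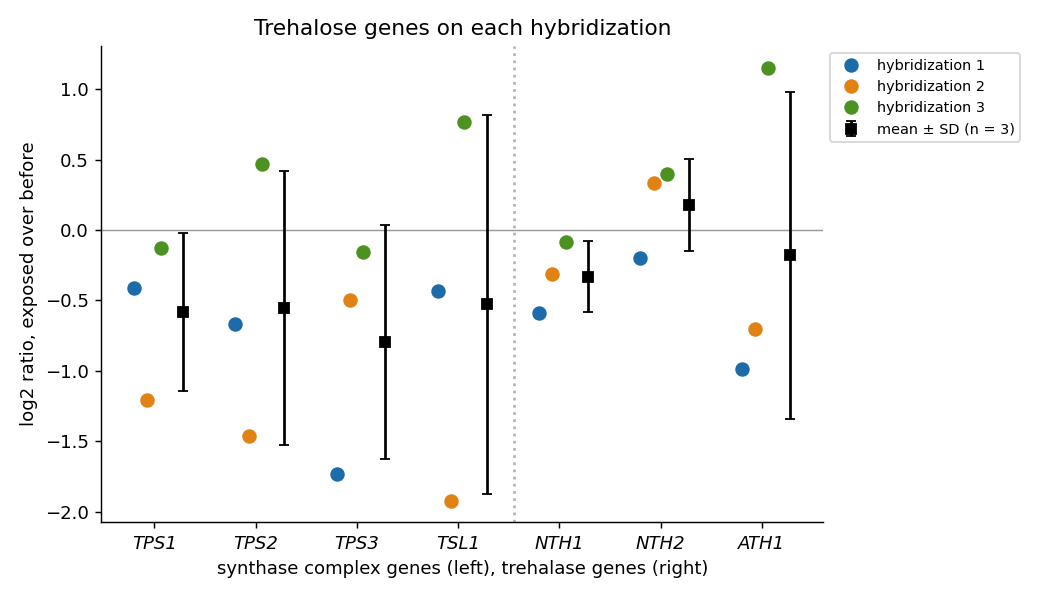
Log2 ratio of exposed cells over cells before exposure (vertical axis) for each trehalose gene (horizontal axis), with circles for hybridizations 1, 2 and 3 and a square with bars for the mean ± SD (n = 3). The circle of hybridization 3 is the highest for all 7 genes, and the bars of TPS2, TPS3, TSL1, NTH2 and ATH1 cross 0.

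TPS1 (YBR126C), the gene of trehalose 6-phosphate synthase, had log2 ratios of -0.41, -1.21 and -0.13 on hybridizations 1, 2 and 3. All lay below 0, and hybridization 2 was the lowest. The mean was -0.58 ± 0.56 (SD, n = 3), or 1.50-fold lower, with a 95% confidence interval from -1.19 to 0.03 (limma, adjusted p = 0.806). On hybridization 2 the transcript was 2.31-fold lower, at percentile 2.69 of the 3642 genes, where a percentile is the share of tested genes with a lower log2 ratio on the same hybridization. On hybridization 3 it was at percentile 39.7, in the middle of the distribution. Without hybridization 2 the mean was -0.27. TPS1 was also the member with a value in all 6 scans, and its low-power scan on hybridization 2 gave -1.33 beside -1.09 at high power.

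TPS2 (YDR074W), the gene of trehalose 6-phosphate phosphatase, had log2 ratios of -0.67, -1.47 and 0.47. The first and second lay below 0 and the third above it, so the sign depended on the hybridization. Its mean was -0.55 ± 0.97 (SD, n = 3), with a 95% confidence interval from -1.34 to 0.23 (limma, adjusted p = 0.885). The gene stood at percentile 1.57 on hybridization 2 and at percentile 86.4 on hybridization 3. Its SD was larger than that of 95.6% of the genes tested. Without hybridization 2 the mean was -0.10.

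TSL1 (YML100W) encodes the larger regulatory subunit and varied most among the 7 genes. Its log2 ratios were -0.43, -1.92 and 0.77, that is 1.35-fold lower, 3.79-fold lower and 1.70-fold higher. The mean of -0.53 ± 1.35 (SD, n = 3) therefore stands for no single hybridization (limma, adjusted p = 0.896), and the 95% confidence interval ran from -1.51 to 0.45. On hybridization 2 TSL1 was at percentile 0.604 of all genes and on hybridization 3 at percentile 94.2. The mean without hybridization 2 was 0.17, of opposite sign.

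TPS3 (YMR261C), the gene of the other regulatory subunit and a relative of TSL1, had log2 ratios of -1.73, -0.50 and -0.15. It was the only member of the complex with its lowest value on hybridization 1, where it was 3.33-fold lower and at percentile 0.165 of all genes. The mean of -0.80 ± 0.83 (SD, n = 3), or 1.74-fold lower, was the lowest of the 7. Its 95% confidence interval, from -1.52 to -0.08, excluded 0 before adjustment for the number of genes, and the adjusted p was 0.782 (limma, unadjusted p = 0.0339). Without hybridization 1 the mean was -0.33 (limma, adjusted p = 0.904). The low value on hybridization 1 was read in both scans, at -1.67 and -1.79.

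TPS3 and TSL1 differed in opposite directions on different hybridizations: TSL1 minus TPS3 was 1.30, -1.42 and 0.92 on the log2 scale. TPS1 and TPS2 kept closer together, with TPS2 minus TPS1 at -0.26, -0.26 and 0.60. Over the 4 genes of the complex the medians were -0.55, -1.34 and 0.17 on hybridizations 1, 2 and 3, and all 4 were below 0 on hybridizations 1 and 2. On hybridization 3 TPS1 and TPS3 were below 0 and TPS2 and TSL1 above it. Averaged over hybridizations 1 and 2 alone, the means were -0.81 for TPS1, -1.07 for TPS2, -1.12 for TPS3 and -1.18 for TSL1. These averages hide unlike values: TPS3 had -1.73 and -0.50 on the 2 hybridizations, and TSL1 -0.43 and -1.92. The SDs ran from 0.56 for TPS1 to 1.05 for TSL1. In that fit on 2 hybridizations none of the genes passed either (limma, adjusted p from 0.239 to 0.492).

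**Figure D2:**
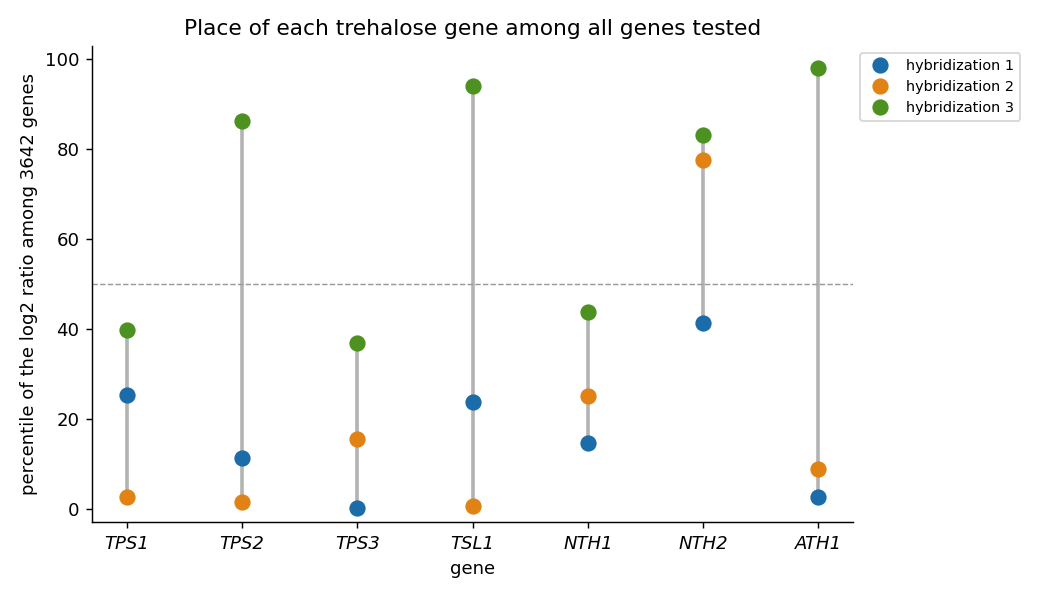
Percentile of each trehalose gene's log2 ratio among the 3642 genes tested (vertical axis), by gene (horizontal axis), with a circle for each hybridization and a line over their range. TSL1 spans percentiles 0.604 to 94.2 and ATH1 2.72 to 98.1, while TPS1, TPS3 and NTH1 stay below the dashed line in the middle.

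NTH1 (YDR001C), the gene of the neutral trehalase that degrades trehalose inside the cell when growth resumes, had log2 ratios of -0.59, -0.31 and -0.09. All lay below 0 within a narrow range. The mean was -0.33 ± 0.25 (SD, n = 3), or 1.26-fold lower, with a 95% confidence interval from -0.85 to 0.19 (limma, adjusted p = 0.886). It had the smallest SD of the 7. The spots numbered near NTH1 had medians of -0.40, -0.36 and -0.09 on the hybridizations, close to its own values, and the mean was -0.05 when these were subtracted; their part in its values was not tested. The value of hybridization 3 is the mean of 0.08 at high and -0.25 at low power, so its sign differed between the scans.

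NTH2 (YBR001C), the gene of the Nth1 relative, had log2 ratios of -0.20, 0.33 and 0.40. It was the only member with a mean above 0, at 0.18 ± 0.33 (SD, n = 3), with a 95% confidence interval from -0.36 to 0.71 (limma, adjusted p = 0.939). The mean was 0.07 without hybridization 3, 0.10 without hybridization 2, 0.37 without hybridization 1 and 0.39 with neighbouring spots subtracted. It lay above NTH1 on every hybridization. NTH2 minus NTH1 was 0.39, 0.65 and 0.49, with a mean of 0.51 ± 0.13 (SD, n = 3). The difference was larger than its spread, but an exact sign-flip test on 3 hybridizations cannot go below p = 0.25 (two-sided). No p is therefore given for it. The scans behind it also differed: on hybridization 3 NTH1 is a mean of both scans and NTH2 the high-power scan alone. At high power alone NTH1 had -0.51, -0.31 and 0.08 and NTH2 had -0.38, 0.33 and 0.40. Differences at high power were thus less even over the hybridizations. NTH1 and NTH2 are close copies of each other, as are TPS3 and TSL1 to a lesser degree, so their spots may share signal. The part of such sharing in these values was not tested.

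ATH1 (YPR026W), the gene of the acid trehalase that lets cells use trehalose from outside, had log2 ratios of -0.99, -0.71 and 1.15. It was 1.99-fold lower on hybridization 1 and 2.22-fold higher on hybridization 3, where it stood at percentile 98.1 of all genes. These values cancelled to a mean of -0.18 ± 1.16 (SD, n = 3; limma, adjusted p = 0.965), with a 95% confidence interval from -1.06 to 0.70. The sign of that mean turned without hybridization 1 (0.22), without hybridization 2 (0.08) and when the median of neighbouring spot numbers was subtracted (0.02). The spots numbered near ATH1 had medians of -0.33, -0.35 and 0.09 on the hybridizations. Like ATH1, they were lower on hybridizations 1 and 2 than on hybridization 3. Their part in the values of ATH1 was not tested.

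From the lowest mean to the highest the order was TPS3, TPS1, TPS2, TSL1, NTH1, ATH1 and NTH2. No neighbours in this order differed beyond their spread: the differences ran from 0.03 (TSL1 over TPS2, SD 0.42) to 0.36 (NTH2 over ATH1, SD 0.97). The trehalase genes had medians of -0.59, -0.31 and 0.40. The median of the synthesis genes minus that of the trehalase genes was 0.04, -1.02 and -0.23 on the hybridizations, or -0.40 ± 0.55 (SD, n = 3), smaller than its spread. That mean was -0.62 without hybridization 1, -0.09 without hybridization 2 and -0.79 with neighbouring spots subtracted. Both groups had lower medians on hybridizations 1 and 2 than on hybridization 3.

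The difference between hybridization 3 and the mean of the other hybridizations was 2.001 on the log2 scale for ATH1, 1.94 for TSL1, 1.54 for TPS2, 0.96 for TPS3, 0.68 for TPS1, 0.36 for NTH1 and 0.33 for NTH2. Over all genes tested its median was 0.02. ATH1, TSL1 and TPS2 lay at percentiles 99.0, 98.8 and 98.0 of that difference, TPS3 and TPS1 at 93.2 and 86.6, and NTH1 and NTH2 at 73.4 and 71.3. The 7 genes thus ranged from differences near the top of the array to ordinary ones. There is 1 sample behind each hybridization, so these differences carry no test.

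**Figure D3:**
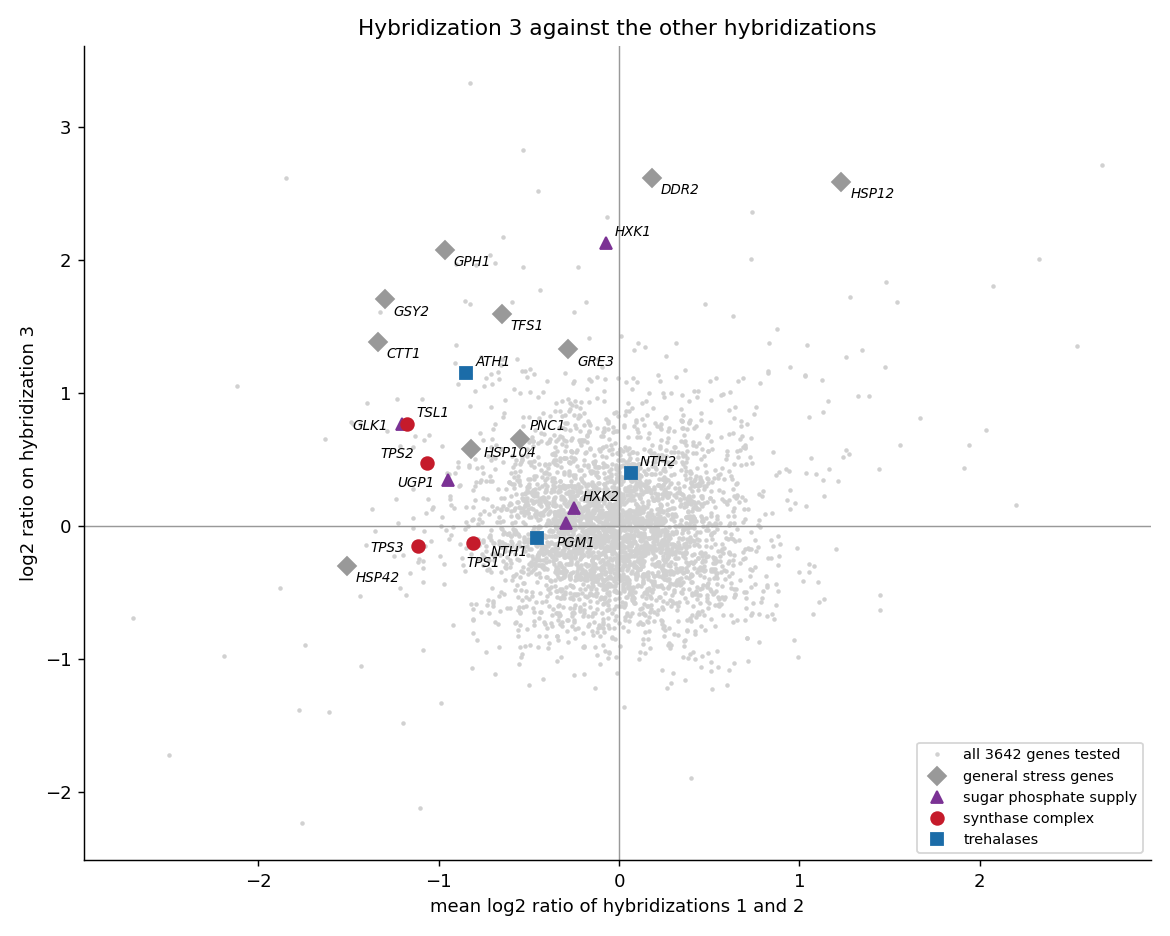
Log2 ratio on hybridization 3 (vertical axis) against the mean log2 ratio of hybridizations 1 and 2 (horizontal axis) for the 3642 genes tested (small dots), with the genes of the synthase complex, the trehalases, sugar phosphate supply and general stress marked and named. TSL1, TPS2 and ATH1 lie at the upper left, on the side of CTT1, GSY2 and GPH1, while NTH1 and NTH2 lie in the cloud of other genes.

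Genes that supply the sugar phosphates for trehalose did not pass the test either (0 of 5 tested in either direction by limma, and 0 at an unadjusted p under 0.05). UGP1 (YKL035W), whose product makes UDP-glucose, had log2 ratios of -0.63, -1.27 and 0.35, with a mean of -0.52 ± 0.82 (SD, n = 3). GLK1, the glucokinase gene, had -1.15, -1.26 and 0.77, the last from the low-power scan alone. Both had the signs of TPS2 and TSL1 on every hybridization. HXK1, the gene of a hexokinase isoenzyme used when glucose is scarce, had -0.33, 0.19 and 2.13, the last from the high-power scan alone. It was near 0 on hybridizations 1 and 2 and far above 0 on hybridization 3. HXK2, the gene of the hexokinase used on glucose, had -0.30, -0.20 and 0.14, a range much narrower than that of HXK1. The phosphoglucomutase gene PGM1 had -0.68, 0.08 and 0.02. PGM2, the gene of the major phosphoglucomutase, had -1.22 and 1.08 on hybridizations 1 and 3 and no value on hybridization 2, so it was not tested. Of the 5 genes tested, 4 were highest on hybridization 3, against 35.3% of all genes. The trehalose and maltose transporter gene MAL11 had a value on hybridization 1 alone (-0.53).

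Genes of the kinase that acts on the pathway showed no common direction in their means. Among the cAMP and protein kinase A genes, 0 of 5 tested passed and 1 was highest on hybridization 3, against 35.3% of all genes. Of the 5 means 3 lay below 0 and 2 above it. On hybridization 3 all 5 genes were below 0, as were 1896 of all 3642 genes. At an unadjusted p under 0.05 there was 1 of 5, against 6.15% of all genes. It was TPK2, the gene of a catalytic subunit, with log2 ratios of -1.03, -1.25 and -0.01. Its mean was -0.76 ± 0.66 (SD, n = 3, limma adjusted p = 0.725). TPK3, the gene of another catalytic subunit, had -0.46, 0.25 and -1.04, lowest where TPK2 was highest. The Ras genes RAS1 and RAS2 had means of 0.44 ± 0.77 and -0.31 ± 0.60 (SD, n = 3), and the phosphodiesterase gene PDE2 0.12 ± 0.20 (SD, n = 3). BCY1 and PDE1 lacked a value on 1 hybridization. BMH1 and BMH2 encode the 14-3-3 proteins, which bind phosphorylated Nth1 and raise its activity. BMH1 hardly varied, at 0.20, 0.18 and 0.20, while BMH2 had -0.25, -0.04 and 0.11; 0 of these 2 genes passed, and 0 did at an unadjusted p under 0.05.

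Of the genes of stress factors and kinases, 0 of 4 tested passed (limma, and 0 at an unadjusted p under 0.05). All 4 means lay below 0, as did 2011 of the 3642 genes tested. They were -0.02 for MSN2, -0.02 for MSN4, -0.41 for YAK1 and -0.43 for SNF1. None of the 4 was below 0 on every hybridization. MSN2 had log2 ratios of 0.10, 0.14 and -0.30 and MSN4 had 0.16, -0.75 and 0.51. YAK1, which encodes a kinase that counters protein kinase A, had -0.45, -1.21 and 0.44, with the signs of TPS2 and TSL1. SNF1, the gene of the kinase of glucose derepression, had 0.21, -0.79 and -0.71, and was not highest on hybridization 3. RIM15 is not among the genes named here.

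A list of 13 general stress genes, of which 10 were tested, is set beside the trehalose genes because these genes answer to Msn2 and Msn4 in textbook accounts. None passed (0 of 10 by limma). At an unadjusted p under 0.05 there was 1 higher, HSP12, and 1 lower, HSP42, against 6.15% of all genes in either direction. All 10 were highest on hybridization 3, against 35.3% of all genes. The list medians were -0.61, -0.98 and 1.49 on hybridizations 1, 2 and 3. For the synthesis genes hybridizations 1 and 2 had medians of -0.55 and -1.34, and hybridization 3 a median of 0.17. The glycogen synthase gene GSY2 had -0.99, -1.62 and 1.71 and the glycogen phosphorylase gene GPH1 had -0.89, -1.04 and 2.08, both with the signs of TPS2 and TSL1. The catalase gene CTT1 had -1.37, -1.31 and 1.39. The disaggregase gene HSP104 had -0.31, -1.33 and 0.58, close to TPS2 on hybridizations 2 and 3. HSP12, the gene of a small membrane-associated stress protein, went another way than the synthesis genes on hybridizations 1 and 2, with 1.06, 1.40 and 2.59. HSP42, a small heat shock protein gene, was below 0 throughout, at -0.82, -2.20 and -0.30, like TPS1 and TPS3. DDR2 had 0.50, -0.13 and 2.62, above 0 on hybridization 1. On hybridization 3 the values of HSP12, CTT1, DDR2, TFS1 and GPH1 rest on the high-power scan alone.

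**Figure D4:**
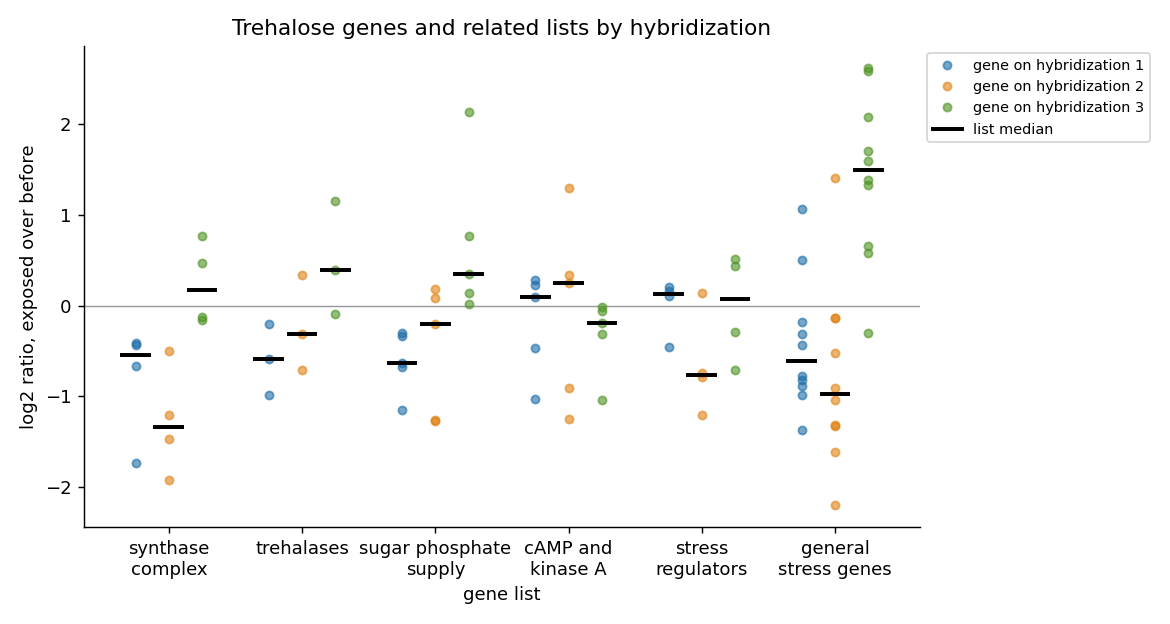
Log2 ratio (vertical axis) of each tested gene of 6 lists (horizontal axis) on hybridizations 1, 2 and 3, with a bar for the list median. The medians of the synthase complex, the trehalases, sugar phosphate supply and the general stress genes are below 0 on hybridizations 1 and 2 and above 0 on hybridization 3 (0.17, 0.40, 0.35 and 1.49), whereas that of the cAMP and protein kinase A genes is -0.19 there.

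The genes most like the median profile of the complex were sought by the root mean square difference over the 3 hybridizations, leaving out the trehalose genes. They were CMK2, which encodes a calmodulin-dependent kinase (difference 0.0819), the copper-sensing transcription factor gene MAC1 (0.105), EDS1 (0.112), DIA1 (0.116) and UGP1 (0.120). These are the 5 nearest of 3635 other genes. For the trehalase genes they were the decapping scavenger gene DCS1 (0.0616), the glutaredoxin gene GRX4 (0.0792), the mitochondrial ribosomal protein gene MRP1 (0.0845), the zinc-finger factor gene AZF1 (0.0907) and PET112 (0.0907). The trehalase profile was -0.59, -0.31 and 0.40. It joins the NTH1 values on hybridizations 1 and 2 to the NTH2 value on hybridization 3, so no trehalase gene has this profile. With 3 values per profile such likeness is a description of these arrays.

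Gene order was examined in the R64 annotation. Of the 14 protein-coding genes next to a trehalose gene, 7 were tested and 0 passed (limma, lowest adjusted p = 0.855), and their means ran from -0.42 to 0.21. Among these neighbours 2 of 7 were highest on hybridization 3, against 35.3% of all genes. YMR262W, next to TPS3, had log2 ratios of -0.42, -1.01 and 0.49, whereas TPS3 was lowest on hybridization 1.

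Repeat scans of the trehalose genes were compared. Of the 21 values at high power, 13 had a partner at low power, and the partners differed by 0.01 to 0.35 on the log2 scale. The largest gap was that of NTH2 on hybridization 1 (-0.38 at high and -0.03 at low power), wider than its mean of 0.18. NTH1 on hybridization 3 had opposite signs, at 0.08 and -0.25. On hybridization 2 TPS1 was the single member with a low-power value, so the low values of TPS2 and TSL1 there rest on 1 scan each. Among markers of other cell states, sporulation genes had 1 of 5 tested, SPS100 (-0.70, 0.27 and 0.93). Mating type genes had 1 of 5 tested, STE3 (-0.13, -0.98 and -1.04), with an unadjusted p under 0.05 and an adjusted p = 0.689 (limma). Ratios do not show whether a transcript was present or absent, so the cell type could not be checked from them.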

How the data were processed

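The file holds the authors' deposited log2 ratios for 6912 spots in 6 scans. Per the labels, ratios were normalised by LOWESS on spots with a flag of 0, and merged values also described there were not used here. LOWESS centres each scan, which hides any shift that most transcripts share. Scanner and background correction were not given in the sources used here, and without intensities the signal over background is unknown. Per the platform annotation 5513 spots name a gene and 1399 do not; 5508 were given current symbols by gene ID from the R64 table, used for names and gene order only. Coordinates were left out, the build behind the array being unstated.

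High and low scans were averaged per spot, then spots per gene. The 3642 genes measured on every hybridization entered a limma fit of the mean against 0 (limma 3.58.1, R 4.3.3, intercept fit, eBayes, two-sided, Benjamini-Hochberg, threshold 0.05), after checks on simulated data. The trehalose genes and the gene lists were chosen with earlier results of these data known. Named are all 7 trehalose genes, any member of the lists, and the 5 genes nearest to each median profile. Alternatives were each scan alone, genes on at least 2 hybridizations, centring, scaling, subtraction of the median of 36 neighbouring spot numbers, robust or no moderation, and leaving out each hybridization. The planned search of promoters for a stress element was not run, since no sequences were used here.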

Additional observations from a re-analysis of the deposited data

How the results depend on the processing

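No trehalose gene passed under any of the 11 alternatives (0 each, limma; adjusted p from 0.239 to 0.998), although low-power values alone allowed a test of TPS1 only and gave no medians. Of 71 recomputed means 67 kept their sign. Those under robust or no moderation, or with genes on at least 2 hybridizations, equal the main means by construction and could not turn. ATH1 turned to 0.0167 after subtraction of the median of neighbouring spot numbers and ran from -0.85 to 0.22 with 1 hybridization left out. TSL1 ran from -1.18 to 0.17 likewise, positive without hybridization 2. With 1 left out, the median of the synthesis genes ran from -1.09 (without hybridization 3) to -0.18 (without hybridization 2), and that of the trehalase genes from -0.45 to 0.22; the cause was not tested. The number of the 7 genes highest on hybridization 3 was not a planned result and was chosen after seeing the data. Counted again under some of the alternatives, it was 7 in 4 of them and 6 with neighbouring spots subtracted. In 1 of those 4, genes on at least 2 hybridizations, the values of the members were the same as in the main test. Over all genes, 2 passed in the main test, 0 without hybridization 1 or without moderation, 1 without hybridization 2 or with neighbouring spots subtracted, and 12 without hybridization 3. Each ratio already sets exposed against earlier RNA on the same array. No further pairing was possible because all samples form 1 group. With 3 hybridizations the 95% confidence intervals of the members reached 0.52 to 0.98 to either side before adjustment for the number of genes, and an adjusted call needed larger differences: TPS3, at -0.80, did not pass. What dim spots add to this cannot be given without intensities.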
